A study of Mus musculus with 6 samples.

Results

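The sensors of foreign RNA and DNA described here are receptors and enzymes of the innate immune response, together with 1 adaptor protein. The 8 genes were Ddx58, Ifih1, Dhx58, Ddx60, Mavs, Eif2ak2, Zbp1 and Tlr3, out of 20848 genes on the array. They were chosen by name with earlier results of these data in view, which came from the log2 signals of these same 6 arrays, and their probe sets were found through the gene symbols of the platform's probe table. The comparisons of TGF-β3 with vehicle and of one sample number with another were both in view when the list was made. The values of the 8 genes in these comparisons are therefore a description, given with their errors and without p-values, and counts of calls among them are set beside those over all genes with nothing read from them. Samples were EpH4 cells, a mouse mammary epithelial line, kept confluent for 7 days until the monolayer had tight junctions. The TGF-β3 group had received the growth factor at 1 ng/ml for 24 hours, and the Vehicle group the vehicle alone. Both groups were in serum-free medium during treatment. There were 3 arrays per group, each hybridised with RNA pooled from 3 wells of 1 experiment, and the titles number the arrays 1, 2 and 3 in both groups. The RNA is that of whole wells of a single cell line, so fewer responding cells and less transcript per cell cannot be told apart.

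Cells recognise viral nucleic acid in several compartments. RIG-I and MDA5, encoded by Ddx58 and Ifih1, are cytosolic helicases that bind viral RNA and signal through the mitochondrial adaptor MAVS to kinases and IRF factors, which switch on type I interferon genes. LGP2, encoded by Dhx58, is their relative without signalling domains, PKR (Eif2ak2) is a kinase that stops translation on binding double-stranded RNA, and ZBP1 binds Z-form nucleic acid and can start necroptosis. TLR3 senses double-stranded RNA from within endosomes, so the set is not cytosolic throughout, and MAVS is an adaptor rather than a sensor. Interferon itself raises the transcripts of most of these sensors, through the ISGF3 complex bound to a DNA element called ISRE.

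Matches to the letters of the ISRE near the start sites are shown as a description of the genes. Their part in the signals was not tested. RefSeq promoters of build GRCm38.p6, from 250 bases before to 50 bases after a start, were matched for 6 of the 8 genes, and Dhx58 and Zbp1 are named only. The ISRE core searched was GAAANNGAAA on both strands, which 3.44% of the 32851 promoters of this length held. It was found once in Ddx58, Ifih1 and Eif2ak2, 2 times in Ddx60, and not in these windows of Mavs and Tlr3. The first base of the match lay at -53 and -19 from the start of Ddx60, and at 3, 33 and 19 after the start of Ddx58, Ifih1 and Eif2ak2. The gamma-activated element TTCNNNGAA, which reads the same on both strands, was in 8.3% of promoters and once in Eif2ak2, at -178, away from the ISRE match. In the 30-base stretches below, written 5′ to 3′ on the strand of the gene, capitals mark the ISRE match.
Ddx60, chr8:61928024-61928053, plus strand: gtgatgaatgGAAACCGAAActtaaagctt
Ddx60, chr8:61928058-61928087, plus strand: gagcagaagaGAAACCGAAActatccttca
Ifih1, chr2:62646206-62646235, minus strand: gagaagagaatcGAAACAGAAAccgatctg
Eif2ak2, chr17:78882535-78882564, minus strand: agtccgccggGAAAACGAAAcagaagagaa
Ddx58, chr4:40239804-40239833, minus strand: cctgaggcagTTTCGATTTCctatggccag
The first 4 matches run in the direction of the gene and the match in Ddx58 on the other strand.

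The 250 bases before the starts of Ddx60, with 2 matches, and of Mavs, without one, are printed as examples. Tlr3 also had no match. Its Pearson r over the 6 arrays with the mean of the other members was 0.913, and that of Mavs 0.47. Capitals again mark ISRE matches.
Ddx60, chr8:61927837-61928086, plus strand: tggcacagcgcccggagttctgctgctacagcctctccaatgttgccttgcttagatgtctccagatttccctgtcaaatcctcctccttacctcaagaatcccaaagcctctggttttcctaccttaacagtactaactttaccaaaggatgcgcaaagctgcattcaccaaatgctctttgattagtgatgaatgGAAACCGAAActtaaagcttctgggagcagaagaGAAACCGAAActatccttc
Mavs, chr2:131233813-131234062, plus strand: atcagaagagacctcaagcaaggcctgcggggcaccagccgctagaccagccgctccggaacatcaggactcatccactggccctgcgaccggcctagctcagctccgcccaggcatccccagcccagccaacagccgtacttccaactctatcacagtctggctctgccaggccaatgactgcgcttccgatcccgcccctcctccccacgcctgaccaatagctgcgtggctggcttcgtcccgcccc
A match of letters is a description of the sequence, and binding was not measured.

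Signals are log2 values from the authors' RMA processing, and each gene value is the mean of its probe sets on an array. Array medians over all probe sets lay between 6.63 and 6.64 in the TGF-β3 group and between 6.56 and 6.62 in the Vehicle group. The Vehicle 3 array had a narrower spread of gene signals, with an SD over genes of 1.58 against 1.68 to 1.74 on the other 5 arrays. Epithelial markers Cdh1, Krt8 and Epcam averaged 10.22, 11.82 and 9.92 in TGF-β3 and 10.20, 11.76 and 9.85 in Vehicle. The luminal markers Krt19 and Elf5 were low, at 4.92 and 5.10 in TGF-β3 and 4.93 and 5.07 in Vehicle, near the lower quartile of all probe sets (5.01 to 5.06). Macrophage and dendritic cell markers, of which all 8 were measured, averaged 5.61 to 5.78 on the TGF-β3 arrays and 5.56 to 5.89 on the Vehicle arrays. Of these 8 markers, 2 were higher in TGF-β3, Csf1r at 7.03 in TGF-β3 and 6.67 in Vehicle and Cd68 at 7.05 in TGF-β3 and 6.90 in Vehicle. The other 6 were lower, among them Adgre1 at 4.69 in TGF-β3 and 4.83 in Vehicle and Ptprc at 5.23 in TGF-β3 and 5.45 in Vehicle. Fibroblast markers, all 4 measured, averaged 7.08 to 7.39 on the TGF-β3 arrays and 7.03 to 7.36 on the Vehicle arrays.

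The 3 RIG-I-like receptor genes were higher after TGF-β3 in every same-numbered pair. In each, the span of the Vehicle arrays was larger than the difference of the group means, which is an unlike measure. Ddx58 had signals of 10.45, 10.20 and 9.98 in TGF-β3 arrays 1, 2 and 3, against 10.28, 9.86 and 9.55 in Vehicle arrays 1, 2 and 3. Vehicle 1 lay above TGF-β3 arrays 2 and 3, so the groups overlapped. The group means were 10.21 ± 0.24 in TGF-β3 and 9.90 ± 0.36 in Vehicle (SD, n = 3 each), a difference of 0.31 (SE 0.18) or 1.24-fold. Within pairs 1, 2 and 3 Ddx58 differed by 0.17, 0.34 and 0.43.

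Ifih1, which encodes the sensor of long double-stranded RNA, was at 8.52, 7.78 and 7.61 in TGF-β3 arrays 1, 2 and 3, against 8.30, 7.22 and 6.81 in Vehicle arrays 1, 2 and 3. Both number 1 arrays were high and the Vehicle 3 array was the lowest, and again the groups overlapped. The means were 7.97 ± 0.49 in TGF-β3 and 7.45 ± 0.77 in Vehicle (SD, n = 3 each), a difference of 0.52 (SE 0.36) or 1.44-fold. The pair differences of Ifih1 were 0.22, 0.55 and 0.80 for numbers 1, 2 and 3.

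Dhx58 had the largest difference of the 8 genes in both comparisons. Its signals were 8.97, 8.05 and 7.72 in TGF-β3 arrays 1, 2 and 3, against 8.51, 7.03 and 6.79 in Vehicle arrays 1, 2 and 3. Vehicle arrays 2 and 3 were the lowest, and Vehicle 1 lay above TGF-β3 arrays 2 and 3. The means were 8.24 ± 0.65 in TGF-β3 and 7.44 ± 0.93 in Vehicle (SD, n = 3 each), which is a difference of 0.80 (SE 0.44) or 1.74-fold. Within pairs the differences of Dhx58 were 0.46, 1.02 and 0.93, of which the second is 2.02-fold.

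Ddx60, a helicase reported to help RIG-I signalling, followed the same order of arrays. It was at 8.31, 7.57 and 7.36 in TGF-β3 arrays 1, 2 and 3, against 8.01, 6.90 and 6.55 in Vehicle arrays 1, 2 and 3. The means were 7.75 ± 0.50 in TGF-β3 and 7.15 ± 0.76 in Vehicle (SD, n = 3 each), a difference of 0.59 (SE 0.36) or 1.51-fold. The groups overlapped through Vehicle 1, while the pair differences were 0.30, 0.67 and 0.81 and all above 0.

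Mavs, the adaptor on which RIG-I and MDA5 converge, was nearly the same on all 6 arrays. It had 8.09, 8.10 and 8.10 in TGF-β3 arrays 1, 2 and 3, against 8.07, 8.14 and 7.95 in Vehicle arrays 1, 2 and 3. The means were 8.09 ± 0.01 in TGF-β3 and 8.06 ± 0.09 in Vehicle (SD, n = 3 each), a difference of 0.04 (SE 0.08). The 95% interval of that difference ran from -0.14 to 0.22. The sign of the Mavs difference was negative after quantile normalization (-0.009) and after median centring (-0.007), so no direction is given for it.

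Eif2ak2, which encodes PKR, was at 8.58, 8.34 and 7.999 in TGF-β3 arrays 1, 2 and 3, against 8.39, 7.94 and 7.32 in Vehicle arrays 1, 2 and 3. Its means were 8.31 ± 0.29 in TGF-β3 and 7.89 ± 0.54 in Vehicle (SD, n = 3 each), a difference of 0.42 (SE 0.24) or 1.34-fold. Vehicle 3 was the low array and Vehicle 1 lay above TGF-β3 arrays 2 and 3. The pair differences were 0.19, 0.40 and 0.68.

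Zbp1 had signals of 9.77, 9.06 and 8.68 in TGF-β3 arrays 1, 2 and 3, against 9.40, 8.56 and 8.05 in Vehicle arrays 1, 2 and 3. The means were 9.17 ± 0.55 in TGF-β3 and 8.67 ± 0.68 in Vehicle (SD, n = 3 each), a difference of 0.50 (SE 0.34) or 1.41-fold. The groups overlapped, and the pair differences of 0.37, 0.49 and 0.63 spanned less than those of Ifih1, Dhx58 and Ddx60.

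Tlr3, the endosomal receptor, was at 8.59, 8.31 and 8.26 in TGF-β3 arrays 1, 2 and 3, against 8.51, 8.33 and 7.82 in Vehicle arrays 1, 2 and 3. The Vehicle 3 array stood apart below the other 5. The means were 8.39 ± 0.18 in TGF-β3 and 8.22 ± 0.36 in Vehicle (SD, n = 3 each), a difference of 0.16 (SE 0.17). Pair differences were 0.07, -0.02 and 0.44, and without the Vehicle 3 array the group difference was -0.04.

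**Figure D1:**
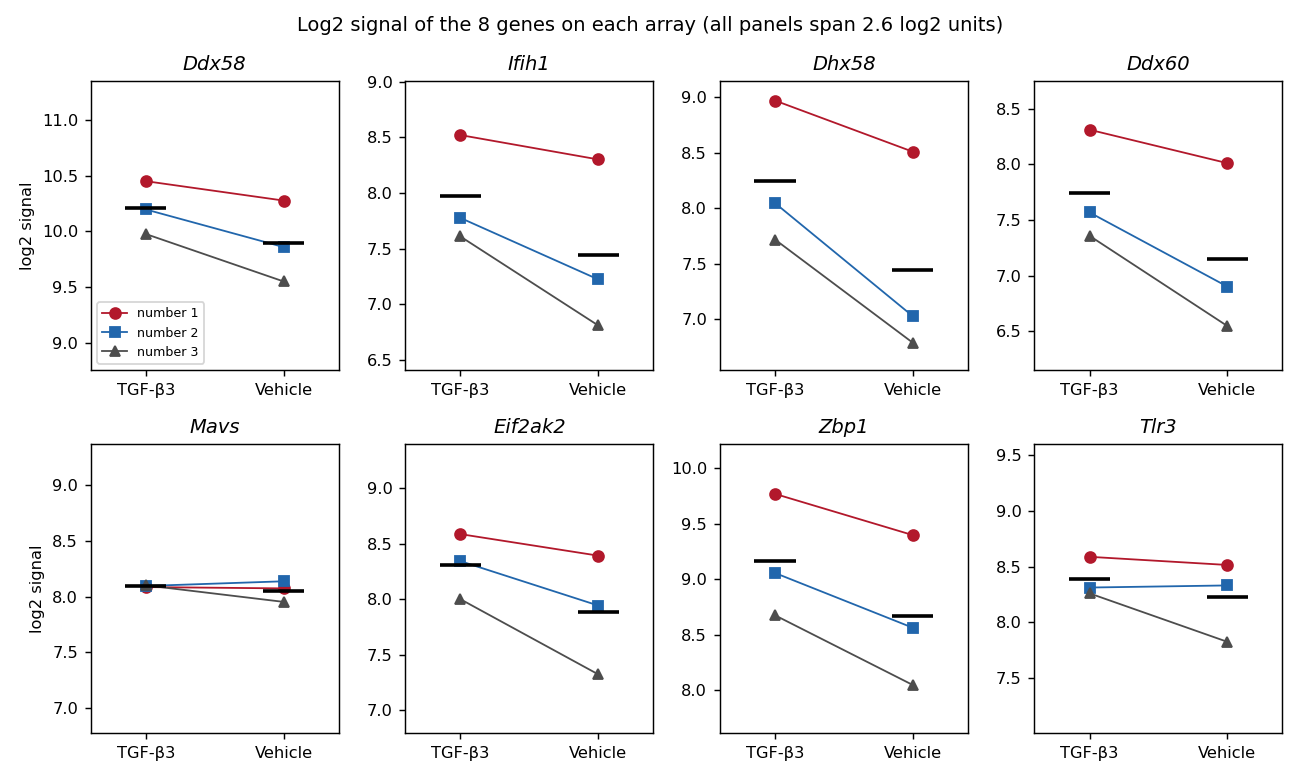
Log2 signal of each gene (vertical axis, every panel spanning the same number of log2 units) on the TGF-β3 arrays (left in each panel) and the Vehicle arrays (right). Lines join same-numbered arrays and black bars are group means, and 7 of the 8 genes run from number 1 at the top to number 3 at the bottom in both groups.

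Considered as a set, 7 of the 8 genes had a higher mean in TGF-β3 (52.8% of all genes), while the sign of Mavs turned with the normalization. In 3 of 3 pairs 6 of 8 were higher, which held for 24% of all genes. Mavs and Tlr3 were the exceptions, each lower in pair 2. The groups overlapped in all 8 genes, where 6.84% of all genes had every TGF-β3 array above every Vehicle array. In the limma fit over all genes 0 of 8 passed an adjusted p of 0.05, beside 0% of all genes in either direction (0 of 20848, with 1076 at an unadjusted p under 0.05). With a replicate block for the number in the titles, also 0 of the 8 passed, beside 0.00959% of all genes (2 of 20848, with 2552 or 12.2% at an unadjusted p under 0.05). The block lowered the SE of the 8 differences to between 0.08 for Mavs and 0.11 for Dhx58, against 0.08 for Mavs and 0.44 for Dhx58 without it. These comparisons were in view when the genes were listed, so nothing is read from the counts. The median difference of the 8 genes was 0.46, beside 0.011 over all genes.

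The mean over the 8 genes was 8.91, 8.42 and 8.21 in TGF-β3 arrays 1, 2 and 3, against 8.69, 7.999 and 7.61 in Vehicle arrays 1, 2 and 3. Its pair differences were 0.225, 0.426 and 0.606, with a mean of 0.419 (SD 0.191 over 3 pairs). The Vehicle arrays alone spanned 1.08 log2 units and the TGF-β3 arrays 0.698. All 8 genes spanned less in TGF-β3 than in Vehicle, as did 72.5% of all genes. All 8 genes also had a larger difference in pair 3 than in pair 1 (50.7% of all genes). In 6 of 8 pair 1 was the smallest of the 3, which was not counted over all genes.

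Single arrays set the size of the group difference. The mean difference of the 8 genes was 0.174 without Vehicle 3 and 0.222 without TGF-β3 1, but 0.713 without Vehicle 1. Each of these omissions leaves 1 sample number in only 1 group. With both arrays of a number left out, a choice made after seeing the data, it was 0.516 without number 1, 0.416 without number 2 and 0.325 without number 3. Vehicle 3 is the array with the narrow spread of signals. After quantile normalization the mean difference was 0.378. The part of the narrow spread in the result was not tested beyond these values.

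**Figure D2:**
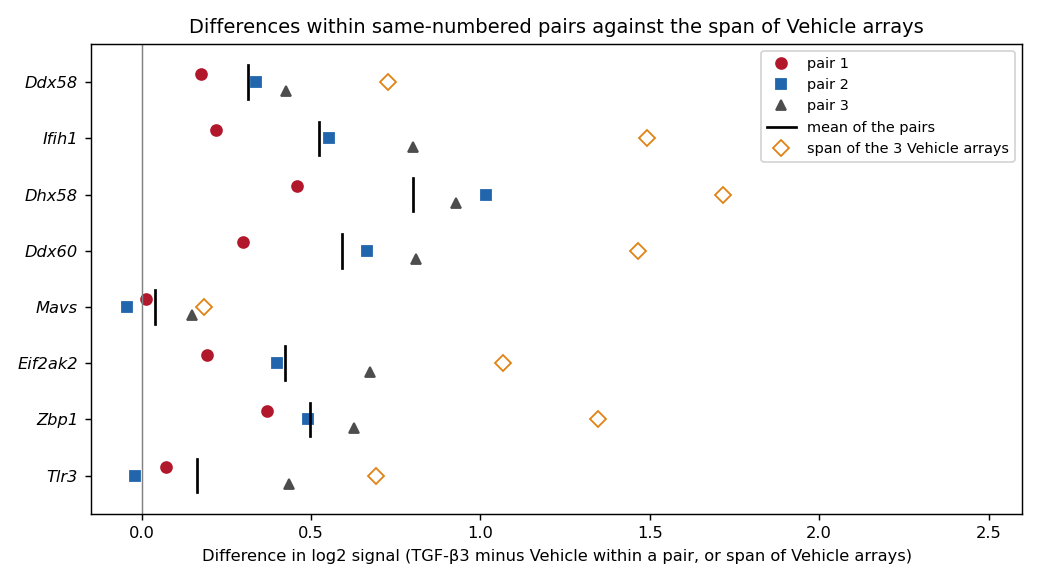
Difference in log2 signal, TGF-β3 minus Vehicle, within each same-numbered pair (filled symbols) with the mean of the pairs (black bar), and the span of the 3 Vehicle arrays (open diamonds). In all 8 genes, Mavs included, the Vehicle span lies to the right of the mean difference. A span of 3 arrays and a difference of means are unlike measures, and this was not counted over all genes.

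In all of the genes but Mavs, number 1 differed from the other numbers by more than TGF-β3 differed from Vehicle. Both number 1 arrays lay above the other 4 arrays in 7 of the 8 genes, Mavs being the exception, where 15.1% of all genes showed this. Dhx58 averaged 8.74 over the number 1 arrays and 7.54 and 7.25 over those of numbers 2 and 3. In number 1, Dhx58 was thus 1.34 (SE 0.12) above the mean of numbers 2 and 3, or 2.53-fold. The same difference was 1.07 (SE 0.11) for Ddx60, 1.06 (SE 0.11) for Ifih1 and 1.00 (SE 0.09) for Zbp1, or 2.10-fold, 2.08-fold and 1.99-fold.

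Eif2ak2, Ddx58 and Tlr3 differed less between the numbers, by 0.59 (SE 0.10), 0.47 (SE 0.09) and 0.37 (SE 0.10). Mavs differed by 0.01 (SE 0.08), with a 95% interval of -0.18 to 0.20. Between Vehicle 1 and Vehicle 3 alone the span was 3.29-fold for Dhx58, 2.81-fold for Ifih1, 2.76-fold for Ddx60 and 2.54-fold for Zbp1. Number 2 also lay above number 3, by 0.48 (SE 0.12) for Eif2ak2, 0.45 (SE 0.10) for Zbp1 and 0.26 to 0.29 for Ddx58, Ifih1, Dhx58, Ddx60 and Tlr3. The labels do not say what a number stands for. Experiment, culture and handling cannot be told apart within it.

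In the limma fit with terms for number and agent, 6 of 8 genes were past an adjusted p of 0.05 for number 1 against the mean of numbers 2 and 3, beside 1.37% of all genes higher and 0.571% lower. Because the list was made with this comparison in view, nothing is read from that count. The comparison of number 1 with the others was itself chosen with earlier results of these data known. Its adjusted p-values, also those of the genes outside the 8 given below, are therefore a description. Over all genes 405 passed. The count was 112 without Vehicle 1, 670 without Vehicle 2, 743 without Vehicle 3 and 3877 without TGF-β3 3, with 4 to 7 of the 8 genes among the calls in any omission of 1 array. With the brightest probe set in place of the mean 0 genes passed, and 2820 had an unadjusted p under 0.05. The mean of the 8 genes differed between number 1 and the others by 0.737, and by 0.592 to 0.882 when single arrays were left out. In the same comparison the median of the fibroblast markers was -0.348, that of macrophage and dendritic cell markers -0.161, that of endothelial markers -0.13 and that of luminal markers 0.039. The fibroblast markers did not move as one. The collagen gene Col1a1 had 8.84 and 8.59 on the number 1 arrays of TGF-β3 and Vehicle, against 9.14 to 9.46 on the other 4 arrays. Col1a2 ran the same way, at 8.23 and 8.21 against 8.74 to 8.93. Pdgfra ran the other way, at 7.00 and 6.96 against 6.63 to 6.96, and Dcn was at 4.25 and 4.35 against 4.24 to 4.43. The part of these markers in the result was not tested.

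**Figure D3:**
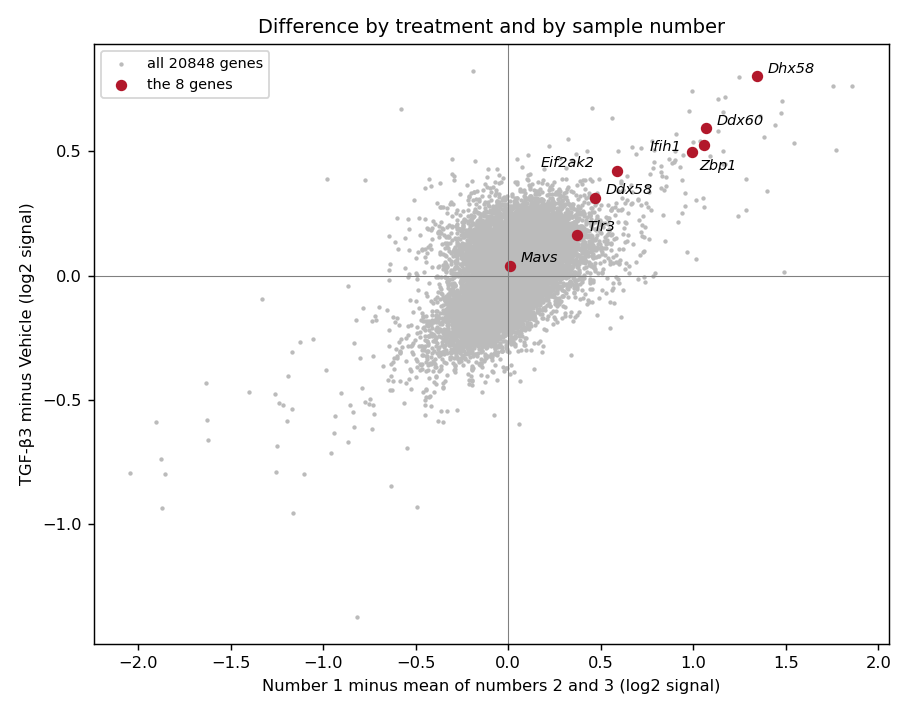
Each of the 20848 genes (grey) and the 8 genes (red) by the difference of number 1 minus the mean of numbers 2 and 3 (horizontal) and of TGF-β3 minus Vehicle (vertical), both in log2 signal. Dhx58, at 1.34 and 0.80, lies furthest to the upper right of the 8, and Mavs lies at the centre of all genes.

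Single probe sets, each a separate set of probes on the same arrays, mostly moved as the gene value did. The 8 genes had 137 probe sets, of which 132 were higher in the TGF-β3 mean (55.1% of all probe sets) and 99 in 3 of 3 pairs (16.8% of all probe sets). All 20 probe sets of Ddx58, all 20 of Ifih1, all 13 of Dhx58, all 17 of Eif2ak2 and all 8 of Zbp1 were higher in TGF-β3. Of the 39 probe sets of Ddx60, 38 were higher, between -0.19 and 1.57. In Mavs 7 of 10 were higher, between -0.09 and 0.21, and only 1 in 3 of 3 pairs. In Tlr3 9 of 10 were higher and 3 in 3 of 3 pairs.

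Within Ddx58 the probe sets differed by 0.06 to 0.77, and those of higher signal differed less (Pearson r = -0.68 over 20 probe sets). For number 1 against the others the same r was -0.79. The probe sets share gene and arrays, so r is a description of 1 transcript. In the other 7 genes the r between signal and TGF-β3 difference lay between -0.35 and 0.51. Taking the probe sets above the median signal of all probe sets left the mean difference of the 8 genes at 0.43. Taking the brightest probe set alone gave 0.337, with Ddx60 at 0.25, Eif2ak2 at 0.21 and Zbp1 at 0.63.

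**Figure D4:**
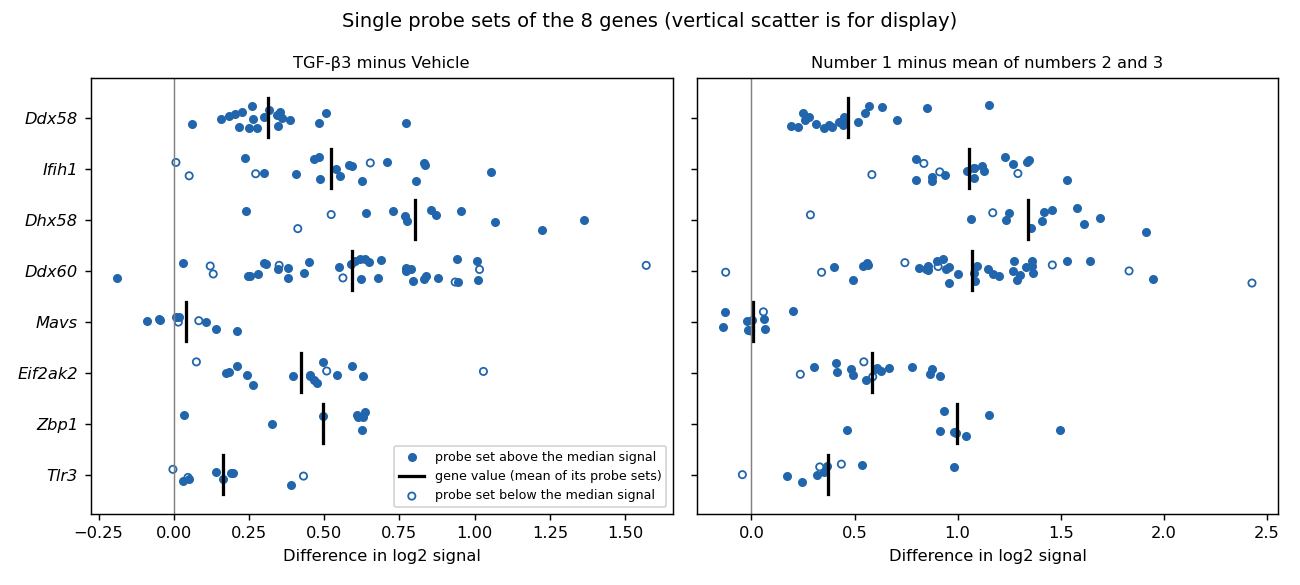
Difference in log2 signal of every probe set of the 8 genes, TGF-β3 minus Vehicle (left) and number 1 minus the mean of numbers 2 and 3 (right). Filled points have a mean signal above the median of all probe sets, open points below it, and black bars are gene values. The probe sets of Mavs gather around 0 in both panels.

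The 8 genes were alike in their order of arrays, with Mavs as the exception. Over the 6 arrays Ifih1 and Ddx60 correlated at a Pearson r of 0.998, Dhx58 and Ddx60 at 0.996, and Ddx58 and Zbp1 at 0.988. Eif2ak2 was closest to Ddx58 (0.987) and Tlr3 to Eif2ak2 (0.951). Mavs was closest to Tlr3 (0.732), and its r with the mean of the other 7 was 0.47, where that of the other genes was 0.913 to 0.993. These values rest on 6 arrays that share their processing, and 2 of them are the high number 1 arrays.

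Genes outside the 8, among them Zc3hav1 of the list of RIG-I-like receptor signalling below, also followed the mean of the 8. The 10 with the highest r over the 6 arrays had values of 0.996 to 0.998. These 10 were picked for a high r, so their values are not compared with those of the 8. Among them, the antiviral RNA-binding protein gene Zc3hav1 (r = 0.998) averaged 8.48 in TGF-β3 and 8.29 in Vehicle, the immunity-related GTPase gene Irgm2 (0.997) averaged 8.22 and 7.76 in the same order, and the interferon-induced gene Ifi35 (0.996) averaged 8.51 and 8.05. Ascc3, a helicase subunit gene, averaged 8.48 in TGF-β3 and 8.24 in Vehicle (0.996). The other 6 were Exoc7, Golgb1, Pcdhb17, Pck2, Isyna1 and Hectd4, with TGF-β3 minus Vehicle differences of 0.10, 0.12, 0.16, 0.14, 0.08 and 0.05. A high r takes no account of size.

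The genes that carry the signal from these sensors did not pass the test for TGF-β3 against Vehicle. Of 27 genes of RIG-I-like receptor signalling, 20 were higher and 7 lower, beside 52.8% of all genes higher. Their median was 0.148 (all genes 0.011), and 0 passed in limma. An unadjusted p under 0.05 in that fit was reached by 2, both higher, beside 5.16% of all genes in either direction. Trim25, a ubiquitin ligase that activates RIG-I, averaged 9.00 ± 0.17 in TGF-β3 and 8.79 ± 0.38 in Vehicle (SD, n = 3 each, limma adjusted p = 0.688). The kinase gene Tbk1 differed by 0.16 (SE 0.13, limma adjusted p = 0.685) and the transcription factor gene Irf3 by 0.13 (SE 0.11, limma adjusted p = 0.696). Traf6, an adaptor ubiquitin ligase, differed by 0.20 (SE 0.08), Tomm70a, a mitochondrial import receptor that binds MAVS, by 0.21 (SE 0.10) and the autophagy gene Atg12 by 0.25 (SE 0.10), each with a limma adjusted p of 0.684.

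Irf7, which amplifies interferon induction, was the exception in size. It had 9.56 ± 0.59 in TGF-β3 and 8.91 ± 0.76 in Vehicle (SD, n = 3 each), a difference of 0.66 (SE 0.38, limma adjusted p = 0.684). All 3 pairs ran this way, and with the replicate block the limma adjusted p was 0.252. In number 1 against the others, Irf7 was higher by 1.16 (SE 0.09, limma adjusted p = 0.0012). Trim14, an adaptor at MAVS, was higher there by 0.70 (SE 0.09, limma adjusted p = 0.0059). These were the 2 of 27 that passed by number, beside 1.37% of all genes.

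Of the DNA sensing genes, 4 passed by sample number, beside 1.37% of all genes higher, and none passed by treatment. Of 27 listed, 26 were measured, 21 higher and 5 lower in TGF-β3, beside 52.8% of all genes higher. For treatment 0 passed (3 at an unadjusted p under 0.05, 2 of them higher). Cgas, the cytosolic DNA sensor that makes cyclic GMP-AMP, was at 5.26 ± 0.08 in TGF-β3 and 5.09 ± 0.10 in Vehicle (SD, n = 3 each), near the lower quartile of all probe sets. Its partner Sting1 was at 8.34 ± 0.08 in TGF-β3 and 8.13 ± 0.17 in Vehicle (SD, n = 3 each). Both had a limma adjusted p of 0.684. In number 1 against the others, Cgas differed by 0.05 (SE 0.09, limma adjusted p = 0.817) and Sting1 by 0.03 (SE 0.09, limma adjusted p = 0.871).

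The 4 DNA sensing genes that passed by number belong to the interferon-inducible p200 family, whose proteins include DNA-binding sensors. Ifi205 was higher in number 1 by 1.47 (SE 0.15, limma adjusted p = 0.00285), Ifi202b by 0.95 (SE 0.11, limma adjusted p = 0.00427) and Ifi203 by 0.84 (SE 0.12, limma adjusted p = 0.0102). Ifi204, named after its value was seen, was the fourth, at 0.62 (SE 0.09, limma adjusted p = 0.0126). For TGF-β3 against Vehicle the first 3 differed by 0.65, 0.48 and 0.34, without passing (limma adjusted p = 0.684, 0.684 and 0.7). The other 2 measured members of the family on the list did not pass by number, Ifi209 at -0.19 (SE 0.09, limma adjusted p = 0.321) and Aim2, named after its value was seen, at -0.16 (SE 0.09, limma adjusted p = 0.41). Members of this family are close in sequence and may share probes. After TGF-β3, Ifi209 was at 4.45 ± 0.03 in TGF-β3 and 4.87 ± 0.20 in Vehicle (SD, n = 3 each), a low signal, with a difference of -0.42 (SE 0.11, limma adjusted p = 0.684). The nuclease gene Dnase2a differed by 0.24 (SE 0.07) and Xrcc5, a DNA end-binding subunit, by 0.26 (SE 0.09), with the same adjusted p.

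Other RNA sensors and RNA-modifying enzymes did not pass in either comparison. Of 22 listed, 21 were measured, 17 higher and 4 lower in TGF-β3, beside 52.8% of all genes higher. Their median was 0.087, with 0 past the threshold (0 at an unadjusted p under 0.05). Adar, which edits double-stranded RNA and thereby limits MDA5, averaged 8.51 ± 0.19 in TGF-β3 and 8.20 ± 0.38 in Vehicle (SD, n = 3 each, limma adjusted p = 0.684). By number it differed by 0.45 (SE 0.10, limma adjusted p = 0.058). Pnpt1, a mitochondrial RNA-degrading enzyme gene, differed by 0.39 (SE 0.17, limma adjusted p = 0.684) after TGF-β3. Prkra, an activator of PKR, differed by 0.24 (SE 0.12) and the helicase gene Dhx15 by 0.18 (SE 0.09), with the same adjusted p. Ticam1, the adaptor of TLR3, differed by 0.05 (SE 0.10, limma adjusted p = 0.826).

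Among the partners of PKR and ZBP1, the kinase relatives of PKR and the necroptosis genes did not pass in either comparison. The 14 genes had a median of 0.13 after TGF-β3, 11 higher and 3 lower, beside 52.8% of all genes higher. Of the 14, 0 were past the threshold (0 at an unadjusted p under 0.05). Eif2ak3, the PERK kinase gene, differed by 0.13 (SE 0.10, limma adjusted p = 0.684), and Eif2s1, which encodes the protein PKR phosphorylates, by 0.18 (SE 0.11) with the same adjusted p. Mlkl, the effector of necroptosis, differed by 0.29 (SE 0.16) after TGF-β3 and by 0.43 (SE 0.09, limma adjusted p = 0.0567) by number, and Ripk1 by 0.18 (SE 0.10) after TGF-β3. The stress genes Ddit3 and Ppp1r15a of the eIF2 pathway did pass by number, beside 1.37% of all genes higher. Ddit3, which encodes CHOP, was higher in number 1 by 1.05 (SE 0.12, limma adjusted p = 0.00469) and Ppp1r15a, a phosphatase subunit gene, by 0.70 (SE 0.09, limma adjusted p = 0.00621). After TGF-β3 these differed by 0.31 (SE 0.35) and -0.01 (SE 0.25).

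Of the genes of interferons and their response, 5 of 17 measured passed by sample number, beside 1.37% of all genes higher. Ifnb1 was low on all arrays. It was at 5.12 ± 0.04 in TGF-β3 and 5.24 ± 0.13 in Vehicle (SD, n = 3 each), near the lower quartile of all probe sets, and by number it differed by 0.01 (SE 0.09, limma adjusted p = 0.982). Ifnl2, a type III interferon gene, was lower in 3 of 3 pairs, at 7.46 ± 0.11 in TGF-β3 and 7.73 ± 0.11 in Vehicle (SD, n = 3 each), and did not pass (limma adjusted p = 0.684). Ifnl3, also of type III and named after its value was seen, ran the other way with 1 probe set. It averaged 6.35 in TGF-β3 and 6.21 in Vehicle, was higher in 2 of 3 pairs and did not pass (limma adjusted p = 0.685). The receptor gene Ifnar1 differed by 0.10 (SE 0.12, limma adjusted p = 0.746) after TGF-β3.

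Of 18 genes of interferons, receptors and ISGF3, 17 were measured, and the 5 that passed by number were all higher in number 1. Usp18, an inhibitor of the interferon receptor, was higher by 1.09 (SE 0.11, limma adjusted p = 0.00282), the ISGF3 subunit gene Stat2 by 0.93 (SE 0.10, limma adjusted p = 0.00426) and Irf1 by 0.54 (SE 0.10, limma adjusted p = 0.0269). Irf9, the DNA-binding subunit of ISGF3, was higher by 0.59 (SE 0.12, limma adjusted p = 0.0428). The fifth was the feedback inhibitor gene Socs1, named after its value was seen, at 0.50 (SE 0.10, limma adjusted p = 0.0461). After TGF-β3, 14 of the 17 were higher (52.8% of all genes) and 0 passed, 2 having an unadjusted p under 0.05. Irf9 was one of these, at 8.67 ± 0.19 in TGF-β3 and 8.17 ± 0.49 in Vehicle (SD, n = 3 each, limma adjusted p = 0.684).

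Over all 6 lists, which included 14 other helicases, 119 of 122 genes were measured. For TGF-β3 against Vehicle 0 passed, also with the replicate block, and 7 had an unadjusted p under 0.05 (5.16% of all genes). With the replicate block 25 had an unadjusted p under 0.05 (12.2% of all genes), 6 in RIG-I-like receptor signalling, 10 in DNA sensing, 3 among other RNA sensors, 2 among the partners of PKR and ZBP1, 4 among interferons and their response, and 0 among the other helicases. By number 13 passed, all higher in number 1, beside 1.37% of all genes. The lists were written, and number 1 set against the others, with earlier results of these data known. Like the 405 calls over all genes, the 13 calls by number were lost with the brightest probe set.

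**Figure D5:**
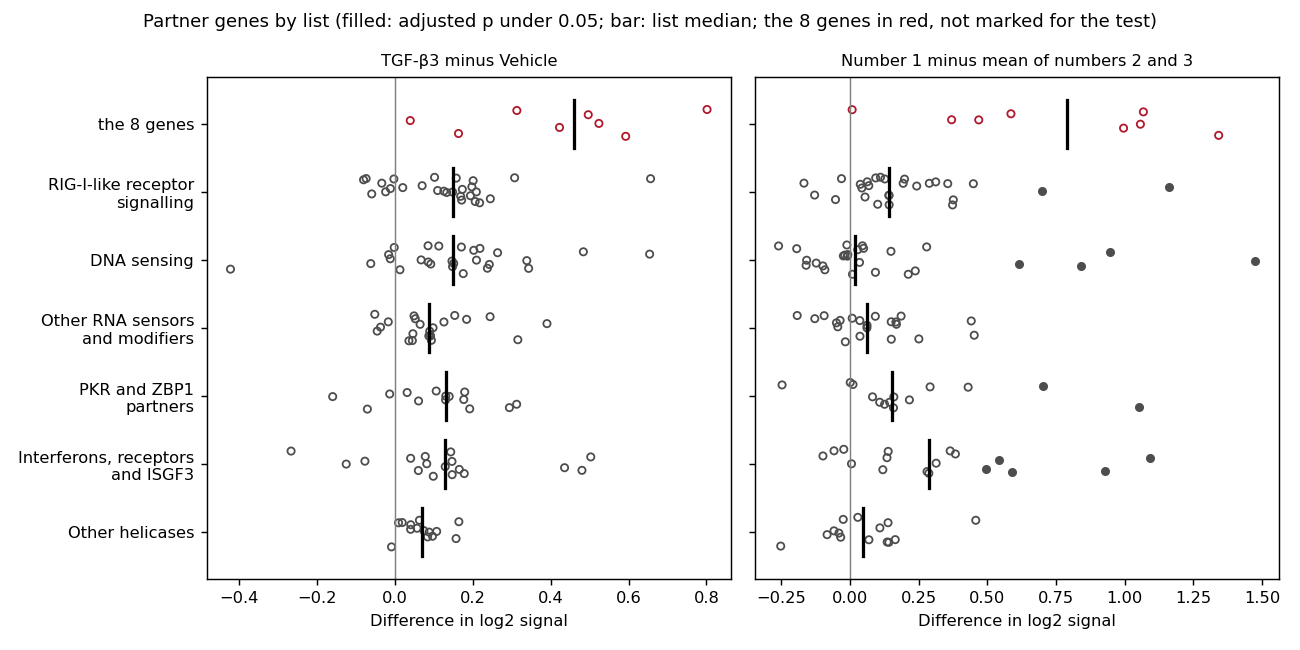
Difference in log2 signal of the 8 genes (red) and of the partner genes by list (grey), TGF-β3 minus Vehicle (left) and number 1 minus the mean of numbers 2 and 3 (right). Filled points passed an adjusted p of 0.05 in limma, the 8 genes are drawn open whether or not they passed, and bars are list medians. The right panel holds 13 filled points and the left panel 0.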

How the data were processed

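RNA of 6 EpH4 samples was measured on Affymetrix Mouse Gene 1.1 ST arrays. Per the submitters' processing notes, the authors deposited log2 signals made with RMA in Affymetrix Power Tools, with its version not given in the sources used here. Values between 2.96 and 13.07 fit a log2 scale. Precision is limited by the number of arrays (median half-width of the 95% interval 0.22 over all genes for TGF-β3 minus Vehicle). Among the 8 genes, Dhx58 had the widest such interval, from -0.19 to 1.79.

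Of 241576 probe sets, 213361 had 1 gene symbol, and their mean per array gave 20848 genes, updated through synonyms of the GRCm38.p6 gene table. Probe sets with several genes (5107) or none (23108) were not used, nor was a filter on signal. Groups and numbers came from the titles. limma 3.58.1 in R 4.3.3 (lmFit, eBayes, Benjamini-Hochberg over all genes, threshold 0.05, two-sided) compared TGF-β3 with Vehicle without a block, and number 1 with the mean of numbers 2 and 3 with a term for agent. SE is that of the fit. The labels name 3 experiments without tying a sample to one. For TGF-β3 against Vehicle, p-values measure the spread between the arrays of a group, which includes differences between numbers. The replicate block takes these out, and the SE of Dhx58 was then 0.11 against 0.44. SEs for TGF-β3 without the block are therefore not like those by number. By number, p-values measure the spread left between same-numbered arrays after the agent term. They do not measure the spread between numbers or experiments.

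The members, the lists and the comparison of number 1 with numbers 2 and 3 were chosen with earlier results of these data known. Genes outside the 8 were named by a rule, the 3 smallest p of each list in each comparison, 12 genes listed by name, and the 10 of highest r with the mean of the 8. Listed genes without a measured value of their own were not analysed here. The labels also hold another number per sample, 1, 5 and 9 for Vehicle 1, 2 and 3. For TGF-β3 1, 2 and 3 it is 3, 7 and 11. In that order each Vehicle array comes just before the TGF-β3 array of the same title number, but no experiment is named. Same-numbered arrays were checked for pairing. Their deviations from group means correlated across genes at 0.622, 0.406 and 0.225, and the numbers were taken as pairs, least securely for number 3. No 2 arrays were duplicates (SD of the difference over genes 0.115 to 0.327). The fits were tested on simulated data. Tables and figures used Python 3.11.15, pandas 2.3.3 and matplotlib 3.10.9.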

Additional observations from a re-analysis of the deposited data

How the results depend on the processing

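The alternatives were median centring, quantile normalization, the brightest probe set or the median over probe sets, probe sets above the median signal, the 25% of genes with the lowest signal left out, trend and robust eBayes, the replicate block, a fit without the agent term, and each array left out. Leaving out both arrays of a number was added after seeing the data.

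For TGF-β3 against Vehicle, 0 genes passed in limma, and 2 with the replicate block, 1 with the replicate block and quantile normalization, 2 without both arrays numbered 1, and 0 to 1 with single arrays left out. None of these calls was among the 8 genes. For number 1 against numbers 2 and 3, 405 genes passed, and 63 with the median probe set, 0 with the brightest probe set, 2 with probe sets above the median signal, 38 without the agent term, and 112 to 3877 with single arrays left out. The cause was not tested. With these settings 3, 0, 0, 0 and 4 to 7 of the 8 genes were among the calls, in that order.

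The mean difference of the 8 genes was above 0 under all alternatives run, from 0.337 to 0.449 under the alternatives that kept all arrays and from 0.174 to 0.713 with single arrays left out. By number it was 0.681 to 0.807 and 0.592 to 0.882. Of the 8 genes, Mavs changed sign under several alternatives in both comparisons, with all its values between -0.05 and 0.081. Tlr3 did so without Vehicle 3 (-0.036). The replicate block changed no call of the 8 genes or of the listed genes for TGF-β3. No detection calls were used, so low signals such as those of Cgas and Ifnb1 cannot be placed against background.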

Other observations

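Helicases outside the interferon response, listed as relatives of the sensors, showed small differences. Of 14 measured, 13 were higher and 1 lower after TGF-β3, beside 52.8% of all genes higher. The differences lay between -0.01 and 0.16, with a median of 0.069, and 0 passed in limma (0 at an unadjusted p under 0.05). The splicing helicase gene Ddx42 differed by 0.16 (SE 0.10), Dhx29, a helicase of translation initiation, by 0.16 (SE 0.09) and the splicing helicase gene Dhx8 by 0.10 (SE 0.09). By number, 0 of the 14 passed. Eif4a3, a subunit of the exon junction complex, differed by 0.46 (SE 0.10, limma adjusted p = 0.0529) and Ddx39b, an mRNA export helicase gene, by -0.25 (SE 0.08, limma adjusted p = 0.162).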
